A study of Mus musculus with 12 samples.

Results

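The genes described here license, fire and run DNA replication: 48 genes that mark and load replication origins, start them, copy and join the DNA, and supply its nucleotides. They were chosen by gene symbol in the deposited expression table, which lists 47069 genes. All 48 passed the filter on low values, a mean of at least 0.1 FPKM over the 12 libraries, which left 17386 genes to test. FPKM scales the reads on a gene to its transcript length and to all mapped reads of the library, so it is a level per length.

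The series compares the liver of WT mice with that of Cdk1 Liv-/- mice, which carry Cdk1 flox/flox and Albumin-Cre, at P14, postnatal day 14. Messenger RNA was sequenced from isolated hepatocytes and from whole liver, with 3 libraries for each genotype in each, to see how gene expression differs when hepatocytes lack CDK1, the kinase that drives entry into mitosis. Albumin-Cre is driven by a promoter active in hepatocytes and their precursors, so liver cells of other lineages, such as blood and endothelial cells, keep an intact Cdk1 gene. The labels name the controls as WT with no further allele and number the libraries without naming animals, so the p-values below measure the spread between these libraries.

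Some libraries stood apart. The study's methods state that male mice were used, but Cdk1 Liv-/- whole liver replicate 3 had 158 FPKM of Xist, the RNA made from the inactive X chromosome of females, and 0 FPKM summed over Kdm5d, Uty, Ddx3y and Eif2s3y, which lie on the Y chromosome. Xist was at most 0.14 FPKM in the other 11 libraries, where the Y-linked sum lay between 48.4 and 62.1 FPKM. Whole liver counts of calls over the members, the related lists and the marker lists are therefore given with and without that library, and the members whose calls are lost without it are named. WT hepatocyte replicate 3 lay at -8.0 on the first principal component, which held 33.9% of the variance of the 17386 genes, while the other 2 WT hepatocyte libraries lay at -74.1 and -75.6. Cdk1 Liv-/- hepatocyte replicate 3 was the lowest of its group for 43 of the 48 replication genes. WT replicate 3 was the lowest of its group for 33 of them in hepatocytes and for 35 in whole liver.

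The table holds no read counts. From the steps between its printed values, each FPKM on 1 kilobase stood for an estimated 34.9 reads in Cdk1 Liv-/- hepatocyte replicate 3, the lowest of the 12 libraries, and for 49.8 reads in WT hepatocyte replicate 1, the highest. The members with the fewest estimated reads were Cdc7, with 42 to 246 reads in a library, and Orc1, with 42 to 113. These libraries are bulk RNA, in which fewer cells of a type and less RNA per cell cannot be told apart.

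Before S phase, the origin recognition complex (ORC), Cdc6 and Cdt1 load the ring-shaped MCM2-7 helicase onto DNA, a step called licensing, which geminin, the product of Gmnn, blocks by holding Cdt1. At S phase the Cdc7 kinase with its activator Dbf4, together with cyclin-dependent kinases, turns the loaded ring into an active helicase by adding Cdc45 and the GINS complex, and polymerases, the PCNA clamp and ligase follow. Deoxynucleotides come from ribonucleotide reductase, thymidylate synthase and thymidine kinase. In the liver, hepatocytes still divide in the weeks after birth and then become quiescent and often polyploid.

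Cdk1 itself had 27.9, 20.4 and 28.2 FPKM in WT hepatocytes and 9.68, 11.8 and 6.87 FPKM in Cdk1 Liv-/- hepatocytes. In whole liver it had 25.3, 22.7 and 21.5 FPKM in WT and 11.7, 12.1 and 14.2 FPKM in Cdk1 Liv-/-. Every Cdk1 Liv-/- library was below every WT library of its compartment, and Cdk1 fell by 1.40 on the log2 scale in hepatocytes (SE 0.221, limma adjusted p = 0.0148) and by 0.85 in whole liver (SE 0.0982, adjusted p = 0.00353). In isolated Cdk1 Liv-/- hepatocytes of this age, the study found hardly any Cdk1 mRNA by qPCR and no CDK1 protein by immunoblot. Its in situ probe was set on exon 3, which the deletion removes. FPKM counts reads on all exons, so Cdk1 FPKM is only a partial check of the deletion. Albumin, the marker of hepatocytes with the highest level, stood at 60008, 64298 and 62222 FPKM in WT hepatocytes and at 41868, 44889.8 and 39898 FPKM in Cdk1 Liv-/- hepatocytes, so the labelled cell type was present in both groups.

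Members differed widely in level. The mean over the 12 libraries ran from 0.621 FPKM for Orc1 to 46.6 FPKM for Pcna, with a median of 8.57 FPKM. Orc1 was the 1 member below 1 FPKM in every library, 11 members were above 10 FPKM in every library, and 0 members had a value of 0 in any library. The 6 MCM2-7 genes, whose proteins form a ring with 1 copy of each, spanned 4.08-fold in mean FPKM in WT hepatocytes. The 6 Orc genes spanned 22.4-fold there.

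In isolated hepatocytes the genotype change was uneven among the 48 genes. Rrm2, Cdc45, Dbf4 and Gins2 rose by more than 1 on the log2 scale, Gins4, Rpa2 and Gmnn rose by less, and the genes of the MCM2-7 ring, the clamp and its loader, and the polymerases did not pass the test. That contrast between roles depends on the setting. Mcm2, Mcm5, Mcm7, Rfc2, Rfc4 and Pole were called higher without Cdk1 Liv-/- replicate 3 and with 1 spread shared by all 4 groups. In limma, 7 of 48 members were higher in Cdk1 Liv-/- at an adjusted p of at most 0.1, which is 14.6% of them, beside 12.1% of all genes tested. A share that near to the background is not a result about the list as a whole. Without Cdk1 Liv-/- replicate 3 the share was 35.4%, beside 8.95% of all genes. That library was set apart by its low values for these same genes, so its omission gives no support to the list. Without Cdk1 Liv-/- replicate 2 the share was 10.4%, beside 9.33% of all genes. With a log2 fold change of at least 1 as well, 4 of 48 members were called, beside 4.2% of all genes. No member was lower in limma (0 of 48, beside 6.61% of all genes). With an unadjusted p of at most 0.05 in limma, 0 members were lower and 13 higher, beside 17.4% of all genes higher and 11% lower. A 2-sample test with q-values also gave 0 members lower, beside 8.02% of all genes. The study names a test of that kind, but the version run here called 2565 genes higher and 1394 lower in hepatocytes. The study reports far fewer, so these are not its own calls. In 11 of 48 members every Cdk1 Liv-/- library was above every WT library, beside 20.6% of all genes, and in 0 of 48 every Cdk1 Liv-/- library was below, beside 13.4%. The log2 fold change was positive in 38 members and negative in 10, and its median was 0.30 over the members and 0.05 over all genes tested.

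**Figure D1:**
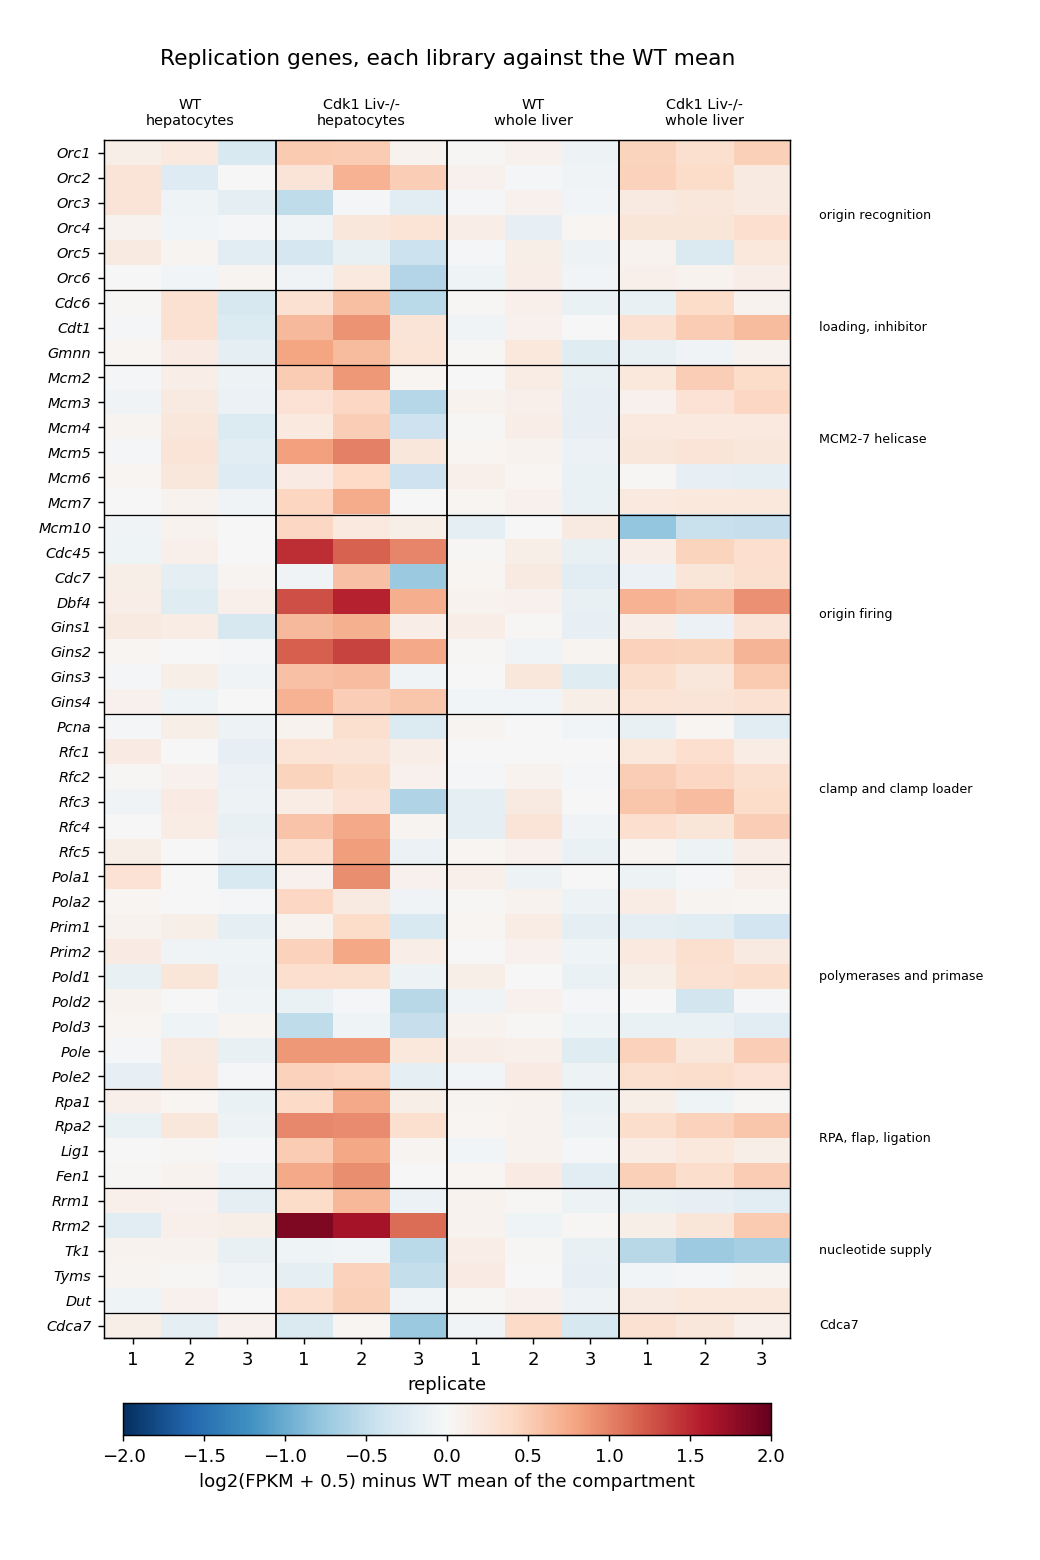
Heat map of the 48 genes (rows, by role) in the 12 libraries (columns), as log2(FPKM + 0.5) minus the WT mean of the same compartment. Rrm2, Cdc45, Dbf4 and Gins2 are dark red in the 3 Cdk1 Liv-/- hepatocyte libraries, and the third of these libraries is paler or bluer than the other 2 in most members.

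The origin firing genes held 4 of the 7 calls, among 8 members (50%, beside 12.1% of all genes higher). Members and lists were chosen with earlier results of these data known, so that share only describes where the calls lie. Without Cdk1 Liv-/- replicate 3 the same 4 were among 17 calls. With 1 spread shared by all 4 groups Gins1 was added, among 20 members higher and 1 lower. Cdc45, the helicase subunit that joins MCM2-7 when an origin fires, had 2.42, 2.85 and 2.59 FPKM in WT hepatocytes and 8.19, 6.57 and 5.64 FPKM in Cdk1 Liv-/- hepatocytes. All 3 Cdk1 Liv-/- libraries were above all 3 WT libraries, and Cdc45 rose by 1.21 (SE 0.163, adjusted p = 0.00909). Dbf4, which activates the Cdc7 kinase, had 5.28, 3.96 and 5.17 FPKM in WT and 12.4, 14.9 and 8.2 FPKM in Cdk1 Liv-/- hepatocytes. The groups did not overlap, replicate 3 was the lowest of the Cdk1 Liv-/- libraries, and the log2 fold change was 1.19 (SE 0.233, adjusted p = 0.0286). Gins2, a subunit of the GINS complex that ties Cdc45 to the ring, had 5.52, 5.3 and 5.22 FPKM in WT and 12.9, 14.4 and 9.41 FPKM in Cdk1 Liv-/- hepatocytes. The WT libraries lay close together and below every Cdk1 Liv-/- library, with a log2 fold change of 1.10 (SE 0.165, adjusted p = 0.0125). Gins4, another GINS subunit and the firing gene with the highest mean level, had 8.74, 7.73 and 8.21 FPKM in WT and 13.6, 11.8 and 12.4 FPKM in Cdk1 Liv-/- hepatocytes. Its groups did not overlap either, and it rose by 0.58 (SE 0.0979, adjusted p = 0.0176). The remaining firing genes did not pass the test, with log2 fold changes of 0.50 for Gins1, 0.38 for Gins3, 0.25 for Mcm10 and -0.074 for Cdc7, the last of which encodes the kinase that Dbf4 activates. Cdc45 lies at chr16:18780447-18811987, Dbf4 at chr5:8396973-8422716, Gins2 at chr8:120578633-120589304 and Gins4 at chr8:23226616-23237659, all on the minus strand of mm10. Exons of Cdc45 and Gins2 overlap exons of Ufd1 and Gse1 on the other strand, and the strand setting of the authors' quantification is not given in the sources used here.

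Among the 5 nucleotide supply genes 1 was called (20%, beside 12.1% of all genes higher). Dut was called as well without Cdk1 Liv-/- replicate 3. Rrm2, the small subunit of ribonucleotide reductase that limits the enzyme in S phase, lies at chr12:24708241-24714146 on the plus strand. It had 15.01, 18.8 and 18.9 FPKM in WT hepatocytes and 64.9, 56.5 and 38.3 FPKM in Cdk1 Liv-/- hepatocytes. Every Cdk1 Liv-/- library was above every WT library, and Rrm2 rose by 1.55 (SE 0.208, adjusted p = 0.00917), the largest log2 fold change of the 48 members in hepatocytes. Tk1, the thymidine kinase of the salvage route and the member of this role with the highest mean level, had 43.6, 43.7 and 37.4 FPKM in WT and 39.02, 40.1 and 28.3 FPKM in Cdk1 Liv-/- hepatocytes. Its groups overlapped, with a log2 fold change of -0.23 that did not pass the test. The other log2 fold changes were 0.30 for Rrm1, the large subunit of the same reductase, 0.25 for Dut, which removes dUTP, and -0.072 for Tyms, thymidylate synthase, and 0 of these 3 genes passed.

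Partner genes were also compared within each library, as ratios of FPKM. The ratio of Rrm2 to Rrm1 FPKM was 1.08, 1.37 and 1.69 in WT hepatocytes and 3.85, 2.73 and 3.24 in Cdk1 Liv-/- hepatocytes. The Cdk1 Liv-/- ratios were 2.39-fold higher on average with no overlap (2-sided exact permutation test, p = 0.1, n = 3 for each group, the smallest p that 3 against 3 allows). In whole liver the same ratio was 1.43, 1.32 and 1.58 in WT and 1.76, 1.92 and 2.44 in Cdk1 Liv-/-, again without overlap (exact p = 0.1). The ratio of Dbf4 to Cdc7 was 4.76, 4.89 and 4.97 in WT hepatocytes and 13.6, 8.65 and 21.03 in Cdk1 Liv-/- hepatocytes (exact p = 0.1), where Cdc7 rests on as few as 42 estimated reads. In whole liver it was 3.65, 3.22 and 3.99 in WT and 6.87, 4.59 and 5.31 in Cdk1 Liv-/- (exact p = 0.1). The ratio of Gmnn to Cdt1, the inhibitor to its target, overlapped between the hepatocyte groups (exact p = 0.7), but in whole liver it was 2.39, 2.44 and 1.89 in WT and 1.59, 1.46 and 1.46 in Cdk1 Liv-/- (exact p = 0.1). The ratio of Rrm2 to Tk1 was 3.49-fold higher in Cdk1 Liv-/- hepatocytes and 1.95-fold higher in Cdk1 Liv-/- whole liver, without overlap in either (exact p = 0.1). These pairs were chosen after the values were seen, so the exact p-values only describe the separation and add no support to it. Over the 8 ratios computed the Benjamini-Hochberg adjusted exact p was 0.114 wherever the p was 0.1 and 0.7 for the other.

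**Figure D2:**
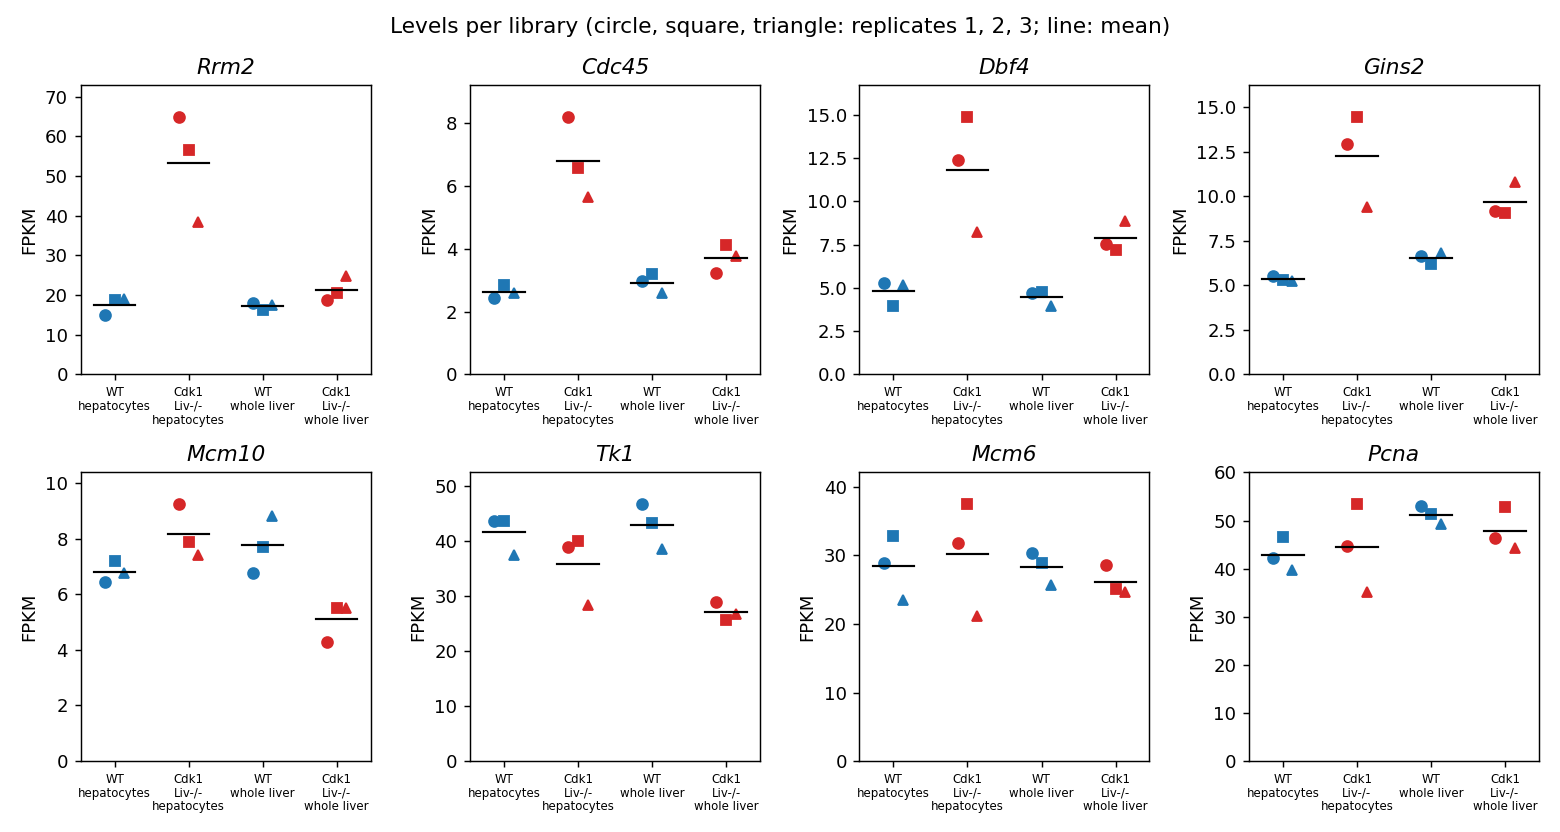
FPKM of 8 members in each library (points, with circle, square and triangle for replicates 1, 2 and 3; lines are group means). Rrm2, Cdc45, Dbf4 and Gins2 separate the hepatocyte genotypes, Mcm10 and Tk1 are lower in the 3 Cdk1 Liv-/- whole liver libraries, and Mcm6 and Pcna overlap between genotypes in both compartments.

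Among the ORC and loading genes, Gmnn alone passed the test in hepatocytes. That made 1 of 3 loading genes and 0 of 6 ORC genes, beside 12.1% of all genes higher. Orc2 and Cdt1 were also called with 1 spread shared by all 4 groups, and Cdt1 with a replicate block. Gmnn, the inhibitor of licensing, had 10.95, 12.1 and 9.23 FPKM in WT and 18.8, 16.8 and 13.04 FPKM in Cdk1 Liv-/- hepatocytes. The groups did not overlap, and Gmnn rose by 0.56 (SE 0.165, adjusted p = 0.0824), a call lost under size factors and without any 1 of 5 of the 6 hepatocyte libraries. The loading factors that geminin and the cell cycle restrain had log2 fold changes of 0.60 for Cdt1 and 0.12 for Cdc6, neither past the test. Orc4, the ORC subunit with the highest mean level, had 11.9, 10.9 and 11.1 FPKM in WT and 10.7, 13.3 and 13.7 FPKM in Cdk1 Liv-/- hepatocytes. All WT values lay inside the range of the Cdk1 Liv-/- values, and its log2 fold change was 0.14. Orc5, another ORC subunit, had 11.2, 10.2 and 8.33 FPKM in WT and 7.67, 8.86 and 7.15 FPKM in Cdk1 Liv-/- hepatocytes. It overlapped through the highest Cdk1 Liv-/- library, with a log2 fold change of -0.30 that did not pass, and an exon of it overlaps Gm15421 on the same strand. The other ORC genes had 0.48 for Orc2, 0.36 for Orc1, -0.15 for Orc6 and -0.25 for Orc3, and 0 of 6 ORC genes were called.

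The MCM2-7 ring gave 0 calls among 6 genes, beside 12.1% of all genes higher and 6.61% lower. Mcm2, Mcm5 and Mcm7 were called higher without Cdk1 Liv-/- replicate 3 and with 1 spread shared by all 4 groups. A replicate block also called Mcm5. Mcm5 had 8.82, 10.9 and 7.63 FPKM in WT and 16.3, 18.6 and 10.7 FPKM in Cdk1 Liv-/- hepatocytes. Replicate 3 of the Cdk1 Liv-/- libraries lay inside the WT range, and the log2 fold change of 0.69 missed the threshold (SE 0.231, adjusted p = 0.116). Mcm6, the MCM gene with the highest mean level, had 28.9, 32.9 and 23.5 FPKM in WT and 31.8, 37.5 and 21.1 FPKM in Cdk1 Liv-/- hepatocytes. The groups overlapped, and 1 Cdk1 Liv-/- library was above and 1 below all WT libraries. The log2 fold changes were 0.47 for Mcm2, 0.39 for Mcm7, 0.093 for Mcm4, 0.056 for Mcm6 and 0.045 for Mcm3, of which the last 2 turn negative with median-ratio size factors, at -0.019 and -0.029.

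At the fork itself, the clamp and its loader also gave 0 calls among 6 genes in hepatocytes, beside 12.1% of all genes higher and 6.61% lower. Rfc2 and Rfc4 were called higher without Cdk1 Liv-/- replicate 3 and with 1 spread shared by all 4 groups. Pcna, the sliding clamp, had 42.1, 46.7 and 39.8 FPKM in WT and 44.7, 53.5 and 35.2 FPKM in Cdk1 Liv-/- hepatocytes. The Cdk1 Liv-/- libraries spread on both sides of the WT libraries, and the log2 fold change of 0.035 turns to -0.041 with size factors. Rfc3, a clamp loader subunit, had 6.92, 8.28 and 6.77 FPKM in WT and 8.17, 9 and 4.66 FPKM in Cdk1 Liv-/- hepatocytes. Its lowest value was Cdk1 Liv-/- replicate 3, without which its log2 fold change of -0.052 becomes 0.22. The other loader genes had log2 fold changes of 0.46 for Rfc4, 0.35 for Rfc5, 0.30 for Rfc2 and 0.22 for Rfc1.

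Polymerase and primase genes gave 0 calls among 9, beside 12.1% of all genes higher and 6.61% lower. Pole was called higher without Cdk1 Liv-/- replicate 3. With 1 spread shared by all 4 groups Pole and Prim2 were called higher and Pold3 lower. Pold3, an accessory subunit of polymerase delta, had 6.75, 6.15 and 6.84 FPKM in WT and 4.46, 6.19 and 4.65 FPKM in Cdk1 Liv-/- hepatocytes. The Cdk1 Liv-/- replicate 2 lay within the WT range, and the log2 fold change of -0.35, the most negative of the 48, did not pass the test (adjusted p = 0.184). Prim1, the catalytic primase subunit, had 11.8, 12.1 and 9.63 FPKM in WT and 11.7, 14.4 and 8.89 FPKM in Cdk1 Liv-/- hepatocytes. These groups overlapped, and the log2 fold change of 0.044 turns to -0.030 with size factors. The catalytic subunit of polymerase epsilon, Pole, had a log2 fold change of 0.65 and an adjusted p of 0.11, with no overlap between its groups. The others had 0.46 for Prim2, 0.36 for Pola1, 0.24 for Pole2, 0.19 for Pold1, 0.17 for Pola2 and -0.23 for Pold2.

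The single-strand binding, flap and ligation genes gave 1 call among 4 (25%, beside 12.1% of all genes higher). All 4 were called higher without Cdk1 Liv-/- replicate 3 and with 1 spread shared by all 4 groups. Rpa2, a subunit of replication protein A, which coats single-stranded DNA, had 6.54, 8.52 and 6.7 FPKM in WT and 14.5, 14.3 and 9.14 FPKM in Cdk1 Liv-/- hepatocytes. The groups did not overlap, and Rpa2 rose by 0.74 (SE 0.206, adjusted p = 0.0736), a call lost under size factors and without any 1 of 4 of the 6 libraries. Rpa1, the large subunit of the same protein, had 17.8, 16.95 and 15.1 FPKM in WT and 21.8, 28.3 and 18.1 FPKM in Cdk1 Liv-/- hepatocytes. It did not overlap either, but its log2 fold change of 0.42 did not pass (adjusted p = 0.166), and an exon of it overlaps Gm47300 on the same strand. Fen1, the flap nuclease, and Lig1, the ligase of Okazaki fragments, had 0.56 and 0.45. Cdca7, which works with the remodeler HELLS on chromatin, had 2.67, 2.06 and 2.61 FPKM in WT and 1.89, 2.5 and 1.25 FPKM in Cdk1 Liv-/- hepatocytes. Its groups overlapped, with a log2 fold change of -0.34.

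These hepatocyte counts rest partly on single libraries. Without Cdk1 Liv-/- hepatocyte replicate 3, 17 of 48 members were higher (35.4%, beside 8.95% of all genes) and the median was 0.47. Without Cdk1 Liv-/- hepatocyte replicate 2, 5 were higher (10.4%, beside 9.33% of all genes), Pold3 was lower, and the median was 0.19. Without WT hepatocyte replicate 3, 5 were higher (10.4%, beside 8.61%) and the median was 0.23. Rrm2, Cdc45, Dbf4, Gins2 and Gins4 were called with any 1 of the 6 hepatocyte libraries left out. Single omissions left 6.65% to 9.33% of all genes higher, and the share of all genes kept under every omission was not computed. Cdk1 Liv-/- hepatocyte replicate 1 had 30 members above all WT libraries (beside 34.8% of all genes) and 8 below all of them (beside 27.1%). Replicate 2 had 42 above (beside 40.6%) and 0 below (beside 25.9%), and replicate 3 had 13 above (beside 37.2%) and 18 below (beside 27.7%).

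Some markers of other liver cells differed between the hepatocyte genotypes, and their part in these results was not tested. The background for these counts was 12.1% of all genes higher and 6.61% lower, and 9.83% and 8.13% with size factors. Before size factors, the Kupffer cell share of 10% lower and the neutrophil and monocyte share of 10% higher lay near that background. The sums of both these lists overlapped between genotypes. Among the WT hepatocyte libraries, replicate 3 had the highest sum in each list of other cells. Of 10 sinusoidal endothelial markers 9 were lower and 0 higher, with a summed level of 171, 117 and 326 FPKM in WT and 82.7, 52.9 and 61.8 FPKM in Cdk1 Liv-/- hepatocytes, led on average by Fcgr2b in WT and Clec4g in Cdk1 Liv-/-. Of 12 erythroid markers 3 were lower and 0 higher, with 210.5, 175 and 646 FPKM in WT and 109.7, 152 and 59.7 FPKM in Cdk1 Liv-/-, led by Hbb-bs in WT and Tfrc in Cdk1 Liv-/-. WT replicate 3 was the highest and Cdk1 Liv-/- replicate 3 the lowest library of the compartment in the erythroid sum. Of 10 Kupffer cell markers 1 was lower (7 at an unadjusted p of at most 0.05, and 5 with size factors) and 0 higher, with 365, 198 and 668 FPKM in WT and 222, 164 and 143 FPKM in Cdk1 Liv-/-, led by Clec4f in WT and Cd5l in Cdk1 Liv-/-. Of 10 stellate markers 2 were lower and 0 higher, with 260.0, 155 and 564 FPKM in WT and 149, 131 and 118 FPKM in Cdk1 Liv-/-, led by Dcn. Of 10 lymphocyte markers 5 were lower and 0 higher, with 9.57, 7.82 and 19.7 FPKM in WT and 5.44, 3.22 and 3.27 FPKM in Cdk1 Liv-/-, led by Ighm. Each of these sums was above 0 in every hepatocyte library. Of 7 cholangiocyte markers tested 5 were higher and 0 lower, with 29.4, 24.4 and 39.01 FPKM over the 8 listed in WT and 75.96, 138 and 112 FPKM in Cdk1 Liv-/-, led by Spp1. Of 10 neutrophil and monocyte markers 1 was higher and 0 lower, with 14.6, 12.2 and 49.4 FPKM in WT and 21.5, 11.1 and 20.2 FPKM in Cdk1 Liv-/-, led by S100a9. The hepatocyte markers themselves, led by Alb, summed to 83199, 91846 and 86586 FPKM in WT and 58267, 59499 and 55964 FPKM in Cdk1 Liv-/- hepatocytes, with 2 of 10 higher and 2 lower. With size factors 4 erythroid, 5 Kupffer cell and 3 stellate markers were lower, 1 hepatocyte marker was higher, and the other counts stayed the same. A value of 0 was listed for Rhag in 3 hepatocyte libraries, for Ly6g in 3 and for Cftr in 1.

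The sequences before the transcription start are shown for the 3 members that rose most in hepatocytes and for Pold3, whose change there was the most negative, since replication genes are known to share promoter elements for E2F and for the cell cycle repressors that act in quiescence. Windows of 300 bases, from 250 before to 50 after the start, come from RefSeq on GRCm38.p6, where 40 of the 48 members were found by symbol. Capitals mark matches on either strand to the E2F letters TTTCCCGC, TTTGGCGC, TTTCGCGC or TTTGCCGC, to the CHR letters TTTGAA or TTCGAA, or to CCAAT. The Rrm2 window is chr12:24708004-24708303, plus strand, that of Cdc45 is chr16:18811923-18812222, minus strand, that of Dbf4 is chr5:8422667-8422966, minus strand, and that of Pold3 is chr7:100121453-100121752, minus strand.
Rrm2: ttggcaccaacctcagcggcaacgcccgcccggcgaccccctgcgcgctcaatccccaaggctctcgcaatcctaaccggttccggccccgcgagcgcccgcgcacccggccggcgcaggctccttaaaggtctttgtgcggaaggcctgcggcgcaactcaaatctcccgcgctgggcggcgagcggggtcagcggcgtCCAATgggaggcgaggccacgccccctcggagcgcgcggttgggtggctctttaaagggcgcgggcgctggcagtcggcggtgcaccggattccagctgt
Cdc45: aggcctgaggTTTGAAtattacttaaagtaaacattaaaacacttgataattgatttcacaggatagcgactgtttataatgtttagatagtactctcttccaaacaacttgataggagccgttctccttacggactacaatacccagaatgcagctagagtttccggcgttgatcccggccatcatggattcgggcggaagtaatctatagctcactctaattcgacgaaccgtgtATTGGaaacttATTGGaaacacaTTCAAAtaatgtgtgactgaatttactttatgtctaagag
Dbf4: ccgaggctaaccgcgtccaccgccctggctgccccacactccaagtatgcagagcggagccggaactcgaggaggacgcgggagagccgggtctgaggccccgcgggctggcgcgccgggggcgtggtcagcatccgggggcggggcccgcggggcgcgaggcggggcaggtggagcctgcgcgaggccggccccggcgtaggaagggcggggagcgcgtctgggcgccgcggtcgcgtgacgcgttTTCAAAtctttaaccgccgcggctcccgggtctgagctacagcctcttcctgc
Pold3: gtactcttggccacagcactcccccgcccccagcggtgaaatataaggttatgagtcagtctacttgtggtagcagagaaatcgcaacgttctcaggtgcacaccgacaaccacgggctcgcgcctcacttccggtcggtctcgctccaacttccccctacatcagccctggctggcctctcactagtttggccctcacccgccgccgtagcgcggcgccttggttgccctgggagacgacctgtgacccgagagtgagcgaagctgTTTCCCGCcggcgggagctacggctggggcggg
Rrm2 holds CCAAT 50 bases before the start, and Dbf4 holds a CHR match on the other strand 3 bases before it. Cdc45 holds a CHR match 240 bases before the start, CCAAT on the other strand 13 and 2 bases before it, and a CHR match on the other strand after it. Pold3 holds an E2F match after the start. The E2F letters were in 16 of the 40 matched members, 40% of them, beside 2.26% of all 32851 windows and 2.6% of 27025 genes with any window. Of the 7 members that rose in hepatocytes 4 were matched, and 0 of these 4 held the E2F letters, 2 held CHR letters and 3 held CCAAT. CHR letters were in 9 of 40 members (22.5%), beside 19.2% of windows and 21.7% of genes. CCAAT was in 22 of 40 members (55%), beside 37.4% of windows and 41.1% of genes. A match is a description of letters and no evidence of binding. Gins1, Gins2, Gins4, Gmnn, Mcm4, Pole, Prim2 and Rfc2 were not matched.

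In whole liver more members passed the test, with smaller changes. The whole transcriptome was shifted there: the median log2 fold change of all 17386 genes was 0.18, and 0.01 after median-ratio size factors. In limma, 25 of 48 members were higher in Cdk1 Liv-/- at an adjusted p of at most 0.1, or 52.1% of them, beside 38% of all genes, and 3 of 48 were lower, or 6.25%, beside 7.53%. With size factors 7 members were higher (14.6%, beside 17.9% of all genes) and 8 lower (16.7%, beside 16.4%). The median over the members was 0.21, and 0.00 with size factors, so the members as a list lay near the median of all genes under either scale. None of the 48 rose or fell by 1 or more on the log2 scale (0 of 48, beside 4.59% of all genes higher by that much, with 26 members higher and 3 lower at an unadjusted p of at most 0.05 in limma at any size, beside 38.9% and 7.74% of all genes). In 26 of 48 members every Cdk1 Liv-/- library was above every WT library, beside 43.2% of all genes, and in 4 of 48 every one was below, beside 8.94%. Without Cdk1 Liv-/- whole liver replicate 3, the library with Xist, 14 members were higher (29.2%, beside 31.5% of all genes) and 2 lower (4.17%, beside 5.71%), with a median of 0.20. Leaving out WT whole liver replicate 1 gave 14 higher (29.2%, beside 25.9%) and 2 lower (4.17%, beside 4.94%). Leaving out WT replicate 3 gave 11 higher (22.9%, beside 29.7%) and 4 lower (8.33%, beside 6.55%). Leaving out Cdk1 Liv-/- replicate 2 gave 13 higher (27.1%, beside 33% of all genes) and 3 lower (6.25%, beside 6.87%).

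Dbf4, Gins2 and Rfc3 had the most positive log2 fold changes in whole liver. Dbf4, the activator of Cdc7, had 4.71, 4.76 and 3.95 FPKM in WT and 7.56, 7.2 and 8.87 FPKM in Cdk1 Liv-/- whole liver. All 3 Cdk1 Liv-/- libraries were above all 3 WT libraries, and it rose by 0.75 (SE 0.109, adjusted p = 0.00643), or 0.57 relative to the median of all genes. Gins2, of the GINS complex, had 6.65, 6.19 and 6.8 FPKM in WT and 9.18, 9.05 and 10.8 FPKM in Cdk1 Liv-/- whole liver. The groups did not overlap, and it rose by 0.53 (SE 0.0867, adjusted p = 0.0089), or 0.35 relative to all genes. Rfc3, of the clamp loader, had 7.68, 10.1 and 8.86 FPKM in WT and 13.2, 13.7 and 11.5 FPKM in Cdk1 Liv-/- whole liver. It did not overlap either and rose by 0.51 (SE 0.117, adjusted p = 0.0228), or 0.33 relative to all genes. All of these were also called with size factors, at 0.54, 0.32 and 0.30.

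Tk1, Mcm10 and Rrm1 fell in whole liver. Tk1, thymidine kinase, had 46.8, 43.3 and 38.5 FPKM in WT and 28.9, 25.6 and 26.7 FPKM in Cdk1 Liv-/- whole liver. The 3 Cdk1 Liv-/- libraries lay well below the 3 WT libraries, with a log2 fold change of -0.65 (SE 0.0876, adjusted p = 0.00524), or -0.83 relative to all genes. Mcm10, a firing factor that binds the loaded helicase, had 6.78, 7.7 and 8.8 FPKM in WT and 4.3, 5.52 and 5.5 FPKM in Cdk1 Liv-/- whole liver. Its groups did not overlap, with a log2 fold change of -0.56 (SE 0.133, adjusted p = 0.0251), or -0.74 relative to all genes. Rrm1, the large reductase subunit, had 12.6, 12.2 and 11.1 FPKM in WT and 10.7, 10.6 and 10.2 FPKM in Cdk1 Liv-/- whole liver. The groups lay apart by a small margin, with a log2 fold change of -0.18 (SE 0.0655, adjusted p = 0.082), a call lost without any 1 of 5 of the 6 whole liver libraries, Cdk1 Liv-/- replicate 3 among them. Prim1, the catalytic primase subunit, had 11.4, 12.3 and 9.66 FPKM in WT and 9.73, 9.47 and 8.37 FPKM in Cdk1 Liv-/- whole liver. It overlapped through WT replicate 3, and its log2 fold change of -0.26 did not pass (adjusted p = 0.111). It was called lower with size factors, at -0.47, by the 2-sample test with q-values and without WT replicate 3, among other settings. An exon of Tk1 overlaps Afmid on the other strand.

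Of the other members called in hepatocytes, 4 were called in whole liver and Gmnn was not. Rrm2 had 18.03, 16.2 and 17.5 FPKM in WT and 18.8, 20.4 and 24.9 FPKM in Cdk1 Liv-/- whole liver. The groups did not overlap, with a log2 fold change of 0.29 (SE 0.112, adjusted p = 0.0908) or 0.11 relative to all genes, and the call was lost with size factors and without any 1 of 5 of the 6 whole liver libraries, Cdk1 Liv-/- replicate 3 among them. Cdc45 had 2.96, 3.19 and 2.58 FPKM in WT and 3.24, 4.13 and 3.77 FPKM in Cdk1 Liv-/- whole liver. It too did not overlap, with a log2 fold change of 0.30 (SE 0.114, adjusted p = 0.0884) or 0.12 relative to all genes, a call lost with size factors and without the same 5 libraries. Gins4 had 8.7, 8.71 and 9.83 FPKM in WT and 11.1, 10.97 and 11.4 FPKM in Cdk1 Liv-/- whole liver. Its groups lay apart, with a log2 fold change of 0.28 (adjusted p = 0.0241), or 0.10 relative to all genes, and it was not called with size factors. Rpa2 had 8, 8.16 and 7.17 FPKM in WT and 10, 10.8 and 11.6 FPKM in Cdk1 Liv-/- whole liver. It rose without overlap by 0.45 (adjusted p = 0.0115), or 0.27 relative to all genes, and was called with size factors and with any 1 library left out. Gmnn had 13.2, 15.2 and 10.9 FPKM in WT and 11.7, 12.4 and 13.7 FPKM in Cdk1 Liv-/- whole liver. The genotypes overlapped, and the log2 fold change of -0.045 did not pass.

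The most abundant clamp and helicase genes did not pass the test in whole liver. Pcna had 52.95, 51.4 and 49.2 FPKM in WT and 46.3, 52.8 and 44.2 FPKM in Cdk1 Liv-/- whole liver. Mcm6 had 30.3, 28.8 and 25.6 FPKM in WT and 28.5, 25.1 and 24.7 FPKM in Cdk1 Liv-/- whole liver. Both overlapped between genotypes, with log2 fold changes of -0.10 and -0.11 that did not pass, but with size factors both were called lower, at -0.32 and -0.33. Orc4 had 12.95, 10.4 and 12.1 FPKM in WT and 14.1, 13.96 and 14.96 FPKM in Cdk1 Liv-/- whole liver. The groups did not overlap (log2 fold change 0.27, adjusted p = 0.0615), but relative to all genes the change was 0.092, and the call was lost with size factors and without any 1 of 5 libraries, Cdk1 Liv-/- replicate 3 among them. Mcm5 had 9.73, 9.97 and 8.68 FPKM in WT and 11.2, 11.4 and 11.1 FPKM in Cdk1 Liv-/- whole liver. It rose without overlap by 0.24 (adjusted p = 0.042), or 0.054 relative to all genes, and was not called with size factors. Rpa1 had 20.2, 20.5 and 17.6 FPKM in WT and 21.1, 18.3 and 19.7 FPKM in Cdk1 Liv-/- whole liver. Here the groups overlapped, and the log2 fold change of 0.020 turns to -0.20 with size factors. Pold3 had 7.2, 6.93 and 6.4 FPKM in WT and 6.21, 6.22 and 5.75 FPKM in Cdk1 Liv-/- whole liver. Orc5 had 9.25, 10.3 and 8.8 FPKM in WT and 9.9, 7.61 and 10.95 FPKM in Cdk1 Liv-/- whole liver. Cdca7 had 3.33, 4.7 and 2.72 FPKM in WT and 4.42, 4.18 and 3.8 FPKM in Cdk1 Liv-/- whole liver. Orc5 and Cdca7 overlapped between genotypes, while every Cdk1 Liv-/- value of Pold3 was below every WT value. On the log2 scale the whole liver change was -0.16 for Pold3, -0.0080 for Orc5 and 0.21 for Cdca7, none past the test, although Pold3 was called with size factors, at -0.37, and by the 2-sample test with q-values.

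The remaining members are given by role, as log2 fold changes in whole liver before any scaling. Over the 48 members, 12 whole liver calls were kept with any 1 of the 6 libraries left out, among them Orc1, Cdt1, Rfc2 and Fen1 of the genes that follow. The share of all genes kept in that way was not computed, so the count is not a result about the list. Leaving out single libraries left 25.9% to 35.6% of all genes higher and 4.94% to 7.45% lower. With size factors only Orc1, Cdt1 and Rfc2 of the genes below stayed called, and the calls of Orc2, Orc3, Mcm2, Mcm7, Rfc4, Rfc1, Pole, Pole2, Pold1, Prim2, Fen1, Lig1 and Dut were lost. Without Cdk1 Liv-/- replicate 3 the calls of Mcm2, Mcm7, Rfc4, Pole, Pold1, Prim2, Lig1 and Dut were lost. Among ORC genes, which mark origins, they were 0.41 for Orc1, 0.33 for Orc2, 0.20 for Orc3 and 0.10 for Orc6, of which Orc3 and Orc6 turn negative with size factors. Of these 4, Orc1, Orc2 and Orc3 passed the test. The loading factors had 0.48 for Cdt1 and 0.10 for Cdc6, where Cdt1 passed and Cdc6 turns negative with size factors. The MCM2-7 ring genes had 0.36 for Mcm2, 0.26 for Mcm3, 0.21 for Mcm7 and 0.20 for Mcm4, where Mcm2 and Mcm7 passed and Mcm7 and Mcm4 turn negative with size factors. The firing genes had 0.37 for Gins3, 0.15 for Cdc7 and 0.092 for Gins1, 0 of them past the test, and Cdc7 and Gins1 turn negative with size factors. The clamp loader genes had 0.41 for Rfc2, 0.35 for Rfc4, 0.24 for Rfc1 and 0.033 for Rfc5, where Rfc5 did not pass and turns negative with size factors. Polymerase and primase genes had 0.39 for Pole, 0.32 for Pole2, 0.26 for Pold1, 0.23 for Prim2, 0.082 for Pola2, -0.0086 for Pola1 and -0.14 for Pold2, where Pole, Pole2, Pold1 and Prim2 passed and Pola2 turns negative with size factors, under which Pold2 was called lower at -0.34. Fen1, Lig1 and Dut had 0.44, 0.16 and 0.21 and passed, but Lig1 and Dut turn negative with size factors. Tyms had -0.0092 and did not pass. On the other strand, exons overlap Lat2 for Rfc2, Eif4a2 for Rfc4, Wsb2 for Rfc5, Tmem258 and Gm10143 for Fen1 and Zswim9 for Lig1. They also overlap Gm12743 for Orc1, Nif3l1 for Orc2, Vps35 for Orc6, Ap4m1 and Cops6 for Mcm7 and Gm15792 for Pole. Orc4 overlaps Acvr2a and Mbd5 there. Pole2 overlaps Gm49384 on the same strand, as Mcm7 does Mir25 and Mir93.

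Marker genes were called in whole liver as well, and their part was not tested. The background there was 38% of all genes higher and 7.53% lower. The Kupffer cell share of 40% higher lay near that background, and the endothelial share of 20% lay below it. With size factors the background was 17.9% and 16.4%, and without Cdk1 Liv-/- whole liver replicate 3 it was 31.5% and 5.71%. Of 10 neutrophil and monocyte markers 7 were higher and 0 lower, with a sum of 72.2, 45.2 and 68.6 FPKM in WT and 92.6, 313 and 251 FPKM in Cdk1 Liv-/-, led by S100a9. Of 10 stellate markers 6 were higher and 1 lower, with 575, 572 and 644 FPKM in WT and 994, 1211 and 941 FPKM in Cdk1 Liv-/-, led by Col3a1. Of 7 cholangiocyte markers tested 5 were higher and 0 lower, with 71.8, 76.5 and 58.2 FPKM in WT and 293, 157 and 285 FPKM in Cdk1 Liv-/- over the 8 listed, led by Spp1. The Cdk1 Liv-/- libraries were above the WT libraries in each of these 3 sums. Of 10 Kupffer cell markers 4 were higher and 0 lower, with 522, 577 and 584 FPKM in WT and 667, 902 and 696 FPKM in Cdk1 Liv-/-, led by Clec4f in WT and Cd5l in Cdk1 Liv-/-. Of 10 endothelial markers 2 were higher and 0 lower, with 164, 189.7 and 227 FPKM in WT and 207, 257 and 210.3 FPKM in Cdk1 Liv-/-, led by Stab1. Of 12 erythroid markers 3 were lower and 0 higher, with 1161, 1277 and 2228 FPKM in WT and 1189.9, 1823 and 1496 FPKM in Cdk1 Liv-/-, led by Hbb-bs. The erythroid and endothelial sums overlapped between genotypes. Of 10 lymphocyte markers 2 were lower and 0 higher, with 35.2, 35.3 and 37.8 FPKM in WT and 20.8, 36.3 and 30.5 FPKM in Cdk1 Liv-/-, led by Ighm. Of 10 hepatocyte markers 4 were lower and 0 higher, with 86045, 84718 and 87068 FPKM in WT and 67523, 60079 and 65719 FPKM in Cdk1 Liv-/-, led by Alb. No marker had a value of 0 in any whole liver library. With size factors 0 endothelial markers were higher and 1 lower, 3 cholangiocyte markers were higher and 1 lower, 2 Kupffer cell and 6 neutrophil and monocyte markers were higher, and 5 hepatocyte markers were lower, while the other counts stayed the same. When Cdk1 Liv-/- whole liver replicate 3 was left out, 3 neutrophil and monocyte, 3 cholangiocyte, 3 Kupffer cell and 0 endothelial markers were higher. In that setting 2 erythroid, 0 lymphocyte and 3 hepatocyte markers were lower, and the stellate counts stayed the same.

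**Figure D3:**
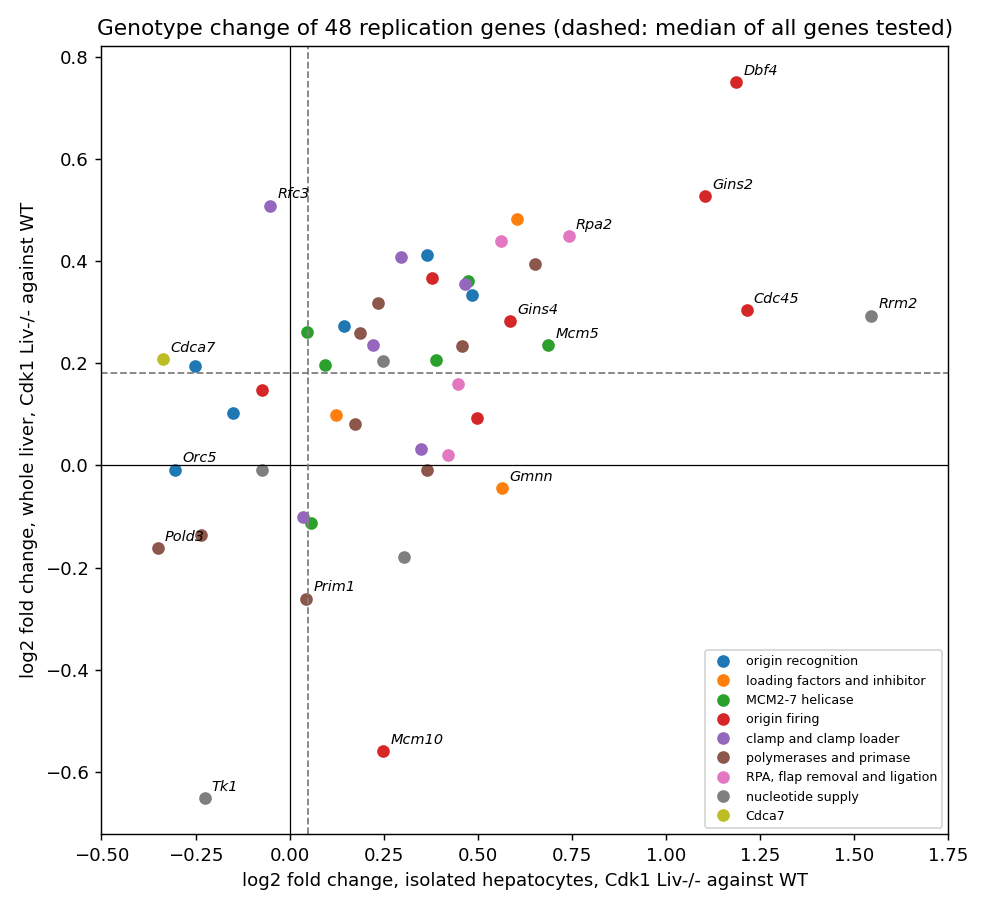
Log2 fold change (Cdk1 Liv-/- against WT) of the 48 members in isolated hepatocytes (x) and in whole liver (y), coloured by role, with dashed lines at the median of all genes tested, 0.05 and 0.18. Rrm2 and Cdc45 lie far to the right at a modest height, and Mcm10 lies right of 0 and well below it.

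The genotype change was compared directly between compartments as hepatocytes minus whole liver. Rrm2, Cdc45 and Mcm10 had a higher genotype change in hepatocytes: 3 of 48 members were called by limma at an adjusted p of at most 0.1 (6.25%, beside 2.35% of all genes), and 7 were higher at an unadjusted p of at most 0.05, beside 5.72% of all genes. The differences were 1.25 for Rrm2 (SE 0.251, adjusted p = 0.0431), 0.91 for Cdc45 (SE 0.2, adjusted p = 0.0512) and 0.81 for Mcm10 (SE 0.18, adjusted p = 0.0521). All genes had a median difference of -0.11, and 0.01 with size factors, so relative to all genes these were 1.36, 1.02 and 0.91. Mcm10 had 6.43, 7.18 and 6.75 FPKM in WT hepatocytes and 9.25, 7.88 and 7.41 FPKM in Cdk1 Liv-/- hepatocytes, set beside its fall in whole liver. The 3 Cdk1 Liv-/- hepatocyte libraries were above the WT libraries by a small margin, and that difference of 0.25 did not pass its own test (adjusted p = 0.222). No member had a lower change in hepatocytes by that test (0 of 48 in limma, beside 7.49% of all genes), with 1, Orc3, at an unadjusted p of at most 0.05, beside 17.9% of all genes, and no other tool was run on the difference. With size factors 5 members were called (10.4%, beside 3.15% of all genes higher), the same 3 and Gins2 and Gins4. Without Cdk1 Liv-/- hepatocyte replicate 3, 9 members were called (18.8%, beside 2.18% of all genes higher). The calls also rest on WT whole liver: 0 remained without its replicate 1 (beside 0.201% of all genes higher), 1 without its replicate 2 (Rrm2, beside 0.65%) and 2 without its replicate 3 (Rrm2 and Cdc45, beside 0.984%). All 3 remained without Cdk1 Liv-/- whole liver replicate 3, beside 1.26% of all genes higher. The median difference was 0.12 over the members and 0.26 with size factors, but -0.02 without Cdk1 Liv-/- hepatocyte replicate 2 and 0.31 without Cdk1 Liv-/- hepatocyte replicate 3.

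WT hepatocytes and WT whole liver were compared to set the level of the genes in hepatocytes beside that in the organ without the deletion. In limma, 0 of 48 members were higher in hepatocytes (beside 0.104% of all genes) and 0 were lower (beside 1.42%), with 3 at an unadjusted p of at most 0.05 (beside 2.77% of all genes higher and 16.1% lower) and 0 by the 2-sample test with q-values. The median log2 difference was -0.10 over the members and -0.10 over all genes. Without WT hepatocyte replicate 3 it was -0.05 over the members, and 0 of 48 were called, beside 2.38% of all genes higher and 15.3% lower. As an example, Tk1 had 43.6, 43.7 and 37.4 FPKM in WT hepatocytes and 46.8, 43.3 and 38.5 FPKM in WT whole liver, which overlapped.

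Related genes outside the 48 put these values in context. The background for these lists, and for those of the next paragraphs, is 12.1% of all genes higher and 6.61% lower in hepatocytes. In whole liver it is 38% higher and 7.53% lower. With size factors it is 9.83% and 8.13% in hepatocytes, and 17.9% and 16.4% in whole liver. Without Cdk1 Liv-/- whole liver replicate 3 it is 31.5% and 5.71% in whole liver. Of 27 other fork and firing genes 6 were higher (22.2%) and 0 lower in hepatocytes, and 15 higher (55.6%) and 0 lower in whole liver, with medians of 0.46 and 0.25, but with size factors 1 was higher and 1 lower in whole liver. When Cdk1 Liv-/- whole liver replicate 3 was left out, 9 of these were higher and 0 lower in whole liver, beside 31.5% and 5.71% of all genes. Exo1, a nuclease of the flap family, and Mcm8, a helicase of recombination, rose by 1.05 (adjusted p = 0.0665) and 1.00 (adjusted p = 0.0303) in hepatocytes. Mcm9, the partner of Mcm8, and Dscc1, of an alternative clamp loader, had -0.21 and -0.20 and did not pass. Of 30 other nucleotide supply genes 4 were higher (13.3%) and 1 lower (3.33%) in hepatocytes, and 15 higher (50%) and 4 lower (13.3%) in whole liver, with medians of 0.10 and 0.22. With size factors 2 were higher and 1 lower in hepatocytes, and 5 higher and 8 lower in whole liver. Leaving out the same whole liver library gave 13 higher and 3 lower. Prps2, which makes the ribose precursor of nucleotides, had 2.9, 2.93 and 2.77 FPKM in WT and 6.25, 6.77 and 5.74 FPKM in Cdk1 Liv-/- hepatocytes. It rose without overlap by 1.00 (SE 0.117, adjusted p = 0.0062). Shmt1, of folate metabolism, fell by 0.49 (adjusted p = 0.068). Ctps, CTP synthase, and Impdh1, of GTP synthesis, had 0.70 and -1.21 without passing, and the Impdh1 value ranged from -1.61 to -0.69 when single libraries were left out.

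Of 15 genes that act on chromatin behind the fork 3 were higher (20%) and 0 lower in hepatocytes, and 7 higher (46.7%) and 0 lower in whole liver, with medians of 0.20 and 0.21, but with size factors 3 were higher and 3 lower in whole liver. Leaving out Cdk1 Liv-/- whole liver replicate 3 gave 6 higher and 0 lower there. Esco2, which acetylates cohesin in S phase, had 4, 3.33 and 3.3 FPKM in WT and 22, 23.4 and 16.2 FPKM in Cdk1 Liv-/- hepatocytes. These groups lay far apart, with a rise of 2.37 (SE 0.165, adjusted p = 0.00151), and its genotype change was higher by 1.58 in hepatocytes than in whole liver (adjusted p = 0.0242). Chaf1a, of chromatin assembly factor 1, rose by 0.96 (adjusted p = 0.0723), while its partner Chaf1b had -0.14 and Tonsl, which binds new histones, had -0.25, neither past the test. Of 15 genes that control licensing 5 were higher (33.3%) and 1, Cdk1, was lower (6.67%) in hepatocytes, and 8 were higher (53.3%) and 1 lower (6.67%) in whole liver, with medians of 0.30 and 0.34, and with size factors 4 were higher and 1 lower in hepatocytes, and 5 higher and 2 lower in whole liver. Without that library 6 were higher and 1 lower in whole liver. E2f1, a transcription factor for S phase genes, and Dtl, which targets Cdt1 for destruction, rose by 0.88 (adjusted p = 0.0606) and 0.82 (adjusted p = 0.0983) in hepatocytes. E2f7, a repressor, had -0.19 and did not pass.

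Genes of G2 and mitosis had higher medians than the replication genes. Of 20 such genes 17 were higher (85%) and 0 lower in hepatocytes, and 18 higher (90%) and 0 lower in whole liver (13 with size factors and 16 without Cdk1 Liv-/- whole liver replicate 3), with medians of 1.30 and 0.78 beside 0.30 and 0.21 for the 48 members. Ccnb1, cyclin B1, the partner of CDK1, had 13.4, 8.11 and 11.1 FPKM in WT and 50.9, 61.8 and 29.8 FPKM in Cdk1 Liv-/- hepatocytes. It rose by 2.04 (adjusted p = 0.0121) without overlap, and Ube2c, of the machinery that degrades cyclin B, rose by 2.00 (adjusted p = 0.0142). Aurkb, a mitotic kinase, and Mki67, the proliferation marker, had 0.59 and 0.69 and did not pass. The difference between these lists was not tested, and the lists were chosen with earlier results of these data known.

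**Figure D4:**
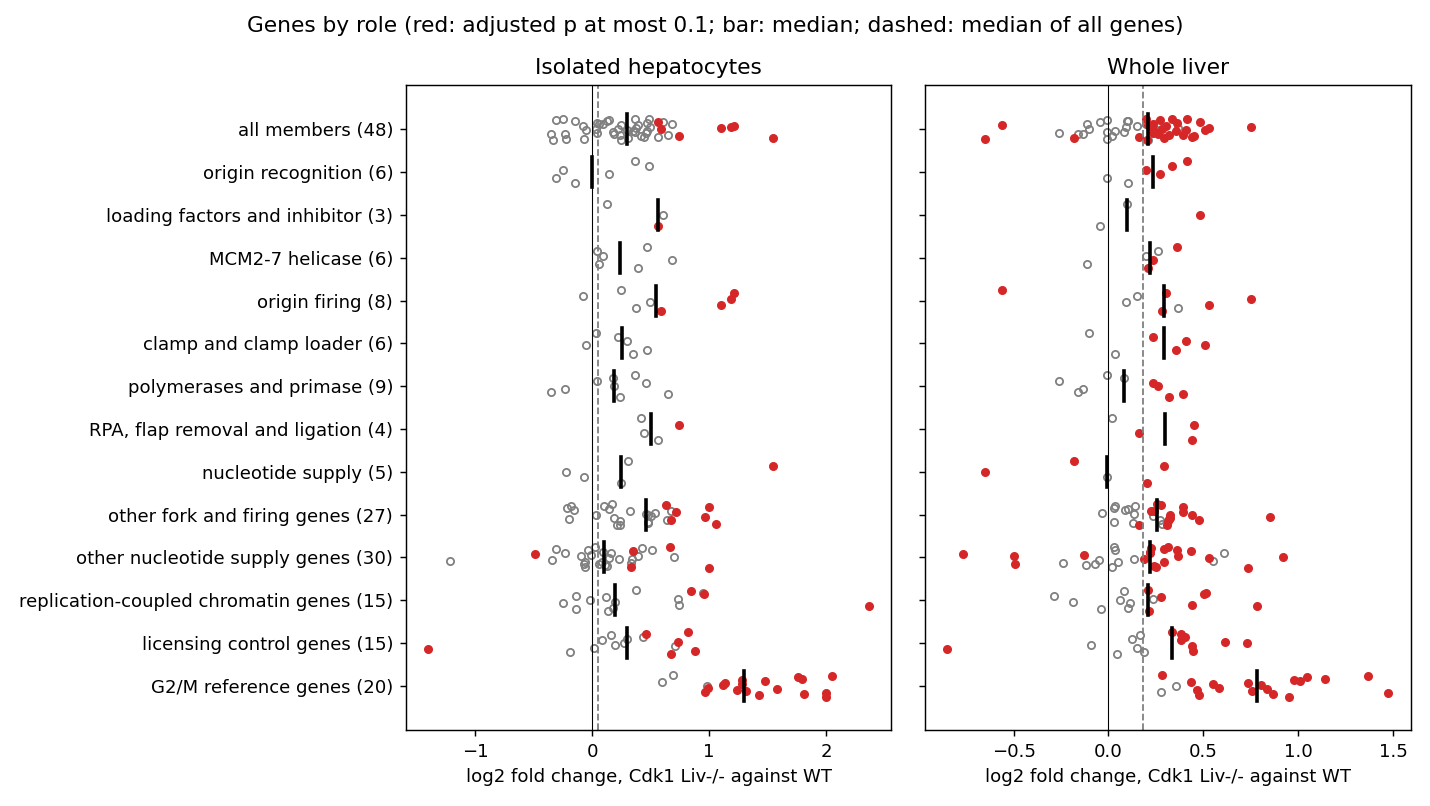
Log2 fold change (Cdk1 Liv-/- against WT) of each gene (points, red at an adjusted p of at most 0.1) by role or list, in isolated hepatocytes and whole liver, with bars at list medians and a dashed line at the median of all genes. The firing genes hold 4 red points of 8 in hepatocytes, beside 12.1% of all genes higher, and the lists were chosen with earlier results of these data known. Of the member roles and related lists, marker lists aside, the G2/M list has the highest median in both panels, 1.30 and 0.78.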

How the data were processed

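The authors sequenced 12 poly(A) libraries, single-end 75 bp, and the submitters' processing notes name STAR and RSEM 1.2.31 on mm10; the annotation release is not given in the sources used here. Values are the deposited FPKM, to 2 decimals, with no normalization between libraries. Genes with a mean FPKM under 0.1 were left out, and log2(FPKM + 0.5) was fitted in limma 3.58.1 (R 4.3.3) with a trended prior, separately in each compartment, WT against Cdk1 Liv-/-; the difference of genotype changes and WT hepatocytes against WT whole liver came from limma too. Tests are 2-sided, adjusted by Benjamini-Hochberg over all genes tested, with an adjusted p of 0.1 or less counted as a call. The fit was also run on simulated data, and no result above rests on that check. Ratios were tested by exact permutation (scipy 1.17.1).

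Members and lists, including the marker lists, were chosen with earlier results of these data known. Every member is named with its log2 fold changes. Levels per library are given for the 6 most positive and 3 most negative changes in hepatocytes, the 3 most positive and 3 most negative in whole liver, members called for the difference, and the member with the highest mean in each role; from each related list the 2 most positive and 2 most negative hepatocyte changes are named. Rrm1, which fell in whole liver, and Pole were added after their values were seen.

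Alternatives were a pseudocount of 0.1 or 1, no filter, an adjusted p of 0.05, median-ratio size factors, a replicate block, the 2-sample test with q-values, 1 spread shared by all 4 groups, and leaving out each library. Reads per FPKM were estimated in genes with a single transcript.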

Additional observations from a re-analysis of the deposited data

Results flagged for a closer look

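For 3 members the genotype change (Cdk1 Liv-/- against WT, log2) differed between isolated hepatocytes and whole liver in limma (adjusted p of 0.1 or less). The difference, hepatocytes minus whole liver, was 1.25 for Rrm2, 0.91 for Cdc45 and 0.81 for Mcm10. For Rrm2 the change was 1.55 in hepatocytes and 0.29 in whole liver, and for Cdc45 it was 1.21 and 0.30. Mcm10 had 0.25 in hepatocytes and -0.56 in whole liver. Groups of 3 libraries were not tested for outliers.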

How the results depend on the processing

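The number of members called in hepatocytes, 7, was 21 with 1 spread shared by all 4 groups (20 higher, 1 lower, beside 19.8% and 11.9% of all genes) and ran from 5 to 17 when single libraries were left out. In whole liver the 28 calls became 17 at an adjusted p of 0.05 (15 higher, 2 lower, beside 28.9% and 5.13% of all genes), 15 with size factors (7 higher, 8 lower, beside 17.9% and 16.4%) and 12 with the shared spread (10 higher, 2 lower, beside 28.3% and 5.54%). They became 33 with the 2-sample test and q-values (28 higher, 5 lower, beside 49.5% and 11.6%) and 29 with a pseudocount of 1 (26 higher, 3 lower, beside 37.8% and 7.49%), and ran from 15 to 24 when single libraries were left out. The 3 calls for the difference of genotype changes became 1 at an adjusted p of 0.05 (beside 0.546% of all genes higher) and 5 with size factors (beside 3.15%), and ran from 0 to 9 when single libraries were left out. WT hepatocytes against WT whole liver gave 0 calls among the members in every setting. The median log2 fold change of the members ran from 0.19 to 0.47 in hepatocytes and from 0.16 to 0.25 in whole liver when single libraries were left out, and that of the difference ran from -0.02 to 0.31. The whole liver median was 0.0022 with size factors. The cause was not tested.

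Some gene values changed sign. With size factors the hepatocyte log2 fold changes were -0.030 for Prim1, -0.019 for Mcm6 and -0.041 for Pcna, and the whole liver value of Rpa1 was -0.20. When single libraries were left out, hepatocyte values ran from -0.22 to 0.22 for Rfc3, -0.12 to 0.22 for Prim1, -0.12 to 0.29 for Mcm6 and -0.11 to 0.19 for Pcna. Whole liver values ran from -0.11 to 0.13 for Orc5, -0.16 to 0.064 for Gmnn and -0.046 to 0.071 for Rpa1. The cause was not tested. Changes were also counted over 62 gene results, which do not cover every member. Of their 700 values under alternatives, 588 kept their direction and their side of the threshold. Another 79 kept their direction and lost the call, 14 gained it and 19 changed sign. The adjusted p of 0.05, the test with q-values and the shared spread were not among the alternatives counted. The counts therefore do not show how calls hold under those settings.

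A replicate block gave 8 calls in hepatocytes (8 higher, beside 6.03% of all genes higher), 20 in whole liver (17 higher, 3 lower, beside 32% and 5.99%) and 3 for the difference (3 higher, beside 1.16%). The labels tie no libraries by number. Xist separates whole liver from hepatocyte Cdk1 Liv-/- replicate 3. Deviations from group means correlated at -0.317 to 0.239 across genes between libraries of the same number. Between WT hepatocytes and WT whole liver these correlations were 0.046, 0.074 and 0.239 for replicates 1, 2 and 3. Median log2 deviations of the members also ran alike there, at 0.035, 0.083 and -0.10 in hepatocytes and 0.029, 0.082 and -0.11 in whole liver. Whether those WT libraries share animals is not known.

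The table gives no read counts, so the counting error of each FPKM is known only through estimated reads, as few as 42 for Cdc7 and Orc1 in 1 library. With 3 libraries in each group, 1 library can make or end a call.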
